A study of Mus musculus with 88 samples.

Results

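Lysosomal proteases of the cathepsin family and their cystatin inhibitors were followed as proteins in mouse dendritic cells. Members were the protein groups of the deposited trypsin table whose first gene name was 1 of 10 listed names, and 9 of these were present: Ctsd, Ctsb, Ctsl1, Ctsh, Ctsc, Ctsz, Ctsa, Cst3 and Cstb. They were 9 of 5899 protein groups kept after decoys, contaminants and groups identified only by a modified site were set aside. The file names cathepsin L by its older symbol, Ctsl1.

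The cells were dendritic cells that GM-CSF had raised from bone marrow (female mice, strain C57BL/6J), and all groups carried this background with no other allele. They were grown with medium-weight arginine and lysine (the M form), pooled, moved into medium with heavy amino acids (the H form) at 0 h, and at day 9 given LPS, a bacterial surface lipid, at 100 ng/ml, or no stimulation (mock). Each lysate was mixed with a master mix of unlabelled cells (L), so M/L measured protein made before 0 h, called old here, H/L measured protein made after it, called new, and the sum of both gave the total. The 42 trypsin runs supply 84 of the 88 samples, 1 each for M and H, and form 21 groups of 2: 0 h, and for each treatment 0.5 h, every hour from 1 to 6 h, and 9, 12 and 24 h. The other 4 were 0 h digests with the enzymes AspN and LysN. The sources used here give neither the make-up of the light mix nor the handling of the 24 h samples, and the series' design text runs to 12 h. Cells were pooled before stimulation and no label ties replicates to separate cultures. The p-values thus cover only the spread among these runs, and that spread may be technical.

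Cathepsins are made as inactive precursors, carried to the endosome and lysosome largely by mannose 6-phosphate receptors, and activated at low pH. In dendritic cells they cut swallowed proteins into peptides and trim the invariant chain from MHC class II molecules, and the maturation that LPS triggers is known to change how lysosomes are acidified and used. Cystatins block cysteine cathepsins. Cst3 (cystatin C) is secreted, and Cstb (cystatin B) stays in the cytosol, where it can meet proteases that leak from lysosomes.

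Many lysosomal genes carry a short palindrome in their promoters that binds the TFEB family of transcription factors. Because most cathepsins moved together, the 250 bases before each start site were searched for CACGTG and for the longer TCACGTGA, which contains it. Both read the same on either strand. RefSeq windows (GRCm38.p6) were matched for 6 of the 9 genes by symbol (Ctsa, with 2 windows, Ctsd, Ctsl for Ctsl1, Ctsc, Ctsz and Cst3), and those that held a match are shown 5′ to 3′ around it, the match in capitals.
Ctsa, chr2:164833731-164833772, plus strand: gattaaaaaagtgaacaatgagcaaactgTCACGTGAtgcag
Ctsd, chr7:142388037-142388077, minus strand: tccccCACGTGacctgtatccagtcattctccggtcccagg
Ctsd, chr7:142387890-142387955, minus strand: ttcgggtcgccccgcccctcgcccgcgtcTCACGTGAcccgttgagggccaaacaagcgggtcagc
Ctsl, chr13:64370721-64370770, minus strand: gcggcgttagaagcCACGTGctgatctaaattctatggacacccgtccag
The Ctsa stretch ends at the base before the start, and the Ctsd stretches begin 250 and 128 bases before it. CACGTG was thus found for 3 of 6 genes, against 6.86% of all 27025 genes with a window, and TCACGTGA for 2 of 6, against 0.907%. Of all 32851 windows, 6.02% and 0.785% held them. These letters were not in the windows of Ctsc, Ctsz and Cst3, nor in the first of the 2 Ctsa windows. A match describes the sequence only.

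The depth was 68083 to 109064 M/L peptide pairs a run, which covered 3575 to 4338 proteins. To make runs comparable, every ratio was put relative to the run factor of its run, which is the median total of 2628 proteins measured as M/L in all runs, so all values below are scaled ratios, relative to the typical protein of the run. Run factors were lower in the first replicates (0.624 to 0.823) than in the second (0.783 to 1.155), and 1 run, replicate 2 of LPS at 12 h, stood apart at 1.616. Results that rest on it are given without it where they differ. Of 10 dendritic cell markers, 6 were measured at 0 h (Itgax, H2-Ab1, H2-Aa, Cd74, Fscn1 and Cd86), and Ciita, Flt3, Ccr7 and Cd83 were listed without intensity or not listed. Of 12 markers each, 9 macrophage and 11 granulocyte markers were also measured, and none of 6 lymphocyte markers. In bulk lysates, fewer cells of a type and less protein per cell cannot be told apart.

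Most members were abundant before stimulation. Protein level was ranked by iBAQ, the summed intensity of a protein divided by the number of peptides it could yield, over the M channel at 0 h, where 4948 and 4885 proteins had a value in the 2 trypsin runs. Ctsd, the main aspartic protease of the lysosome, ranked 33 and 40. Ctsz, a carboxypeptidase also called cathepsin X, followed at 55 and 57. Ctsb, which works as an endopeptidase and a dipeptidyl carboxypeptidase, ranked 106 and 134, and Cstb 129 and 140, so that these neighbours overlapped.

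Lower in the order were Ctsc (209 and 214), the dipeptidyl peptidase that activates granule serine proteases, and Ctsa (244 and 264), a serine carboxypeptidase that also protects the lysosomal β-galactosidase and neuraminidase. Ctsh, an aminopeptidase, ranked 484 and 406 and Ctsl1, an endopeptidase, 492 and 504. Cst3 stood last at 1826 and 930, with a wide gap between its replicates. The other enzymes gave Ctsd the top place among members again, at 21 and 22 of 3508 and 3425 proteins with AspN and at 32 and 23 of 3760 and 3628 with LysN, while Ctsh and Ctsl1 changed places between digests and Cstb was at 45 and 72 with AspN but at 117 and 286 with LysN.

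In unstimulated cells the cathepsins gained ground over the day and Cstb lost it. The total (M+H)/L of Ctsd was 0.762 and 0.798 at 0 h and 1.67 and 1.84 in mock cells at 24 h. Ctsa went from 0.592 and 0.619 to 1.48 and 1.71, and Ctsc from 0.761 and 0.774 to 1.44 and 1.74. In each case both 24 h runs lay above both 0 h runs.

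Over all members, the mock total at 24 h less 0 h passed the test for all 7 cathepsins, with log2 differences from 1.04 for Ctsc to 1.39 for Ctsa, that is 2.06-fold to 2.63-fold (limma, Benjamini-Hochberg adjusted, where 32.5% of all proteins were called, 18.5% higher and 14% lower). Cstb fell by 0.28, a call that ended without replicate 2 (adjusted p = 0.502). Cst3 differed by 2.54, and its call ended without replicate 1 (adjusted p = 0.241). At 6, 9 and 12 h together, the window called late here, the 7 cathepsins were already higher than at 0 h by 0.49 (Ctsz) to 0.70 (Ctsl1), and Cstb was lower by 0.26 ± 0.06 (SE, adjusted p = 0.00301), where 11.1% of proteins were called (7.19% higher, 3.89% lower). Leaving out replicate 2 ended the Cstb call (adjusted p = 0.308).

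Protein made before 0 h followed the same course in mock cells. Old M/L of the 7 cathepsins was higher late than at 0 h by 0.41 (Ctsb) to 0.52 (Ctsh) and that of Cstb was lower by 0.27 ± 0.06 (adjusted p = 0.000867), where 28.6% of proteins were called (7.71% higher, 20.9% lower). The ratios are relative amounts within a lysate, and amounts per cell were not measured, so a higher M/L of a form no longer supplied by the medium is a higher share of the lysate. Before any run factor, the M/L of Ctsd was 0.588 and 0.845 at 0 h and 0.730 and 1.000 in mock cells at 24 h, so each replicate was higher on the raw scale too. The raw total, M and H together, was compared with the replicate as a block and the 12 h LPS run left out. This setting was chosen after the data were seen. The total of all 7 cathepsins stayed higher there, and that of Cstb lower, in mock at 24 h than at 0 h. The median difference in total over all proteins was -0.47, and most proteins called there were lower (counts in the closing section). A lower Cstb on that scale was thus the direction of most called proteins, and the higher cathepsins went against it. For old protein alone, mock at 24 h against 0 h was not tested.

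With LPS, old cathepsin protein ended well below mock and Cstb above it. The old M/L of Ctsd at 24 h was 1.17 and 1.28 in mock and 0.608 and 0.659 in LPS. That of Ctsh was 1.59 and 1.67 against 0.788 and 0.815. Ctsc had 1.12 and 1.44 against 0.567 and 0.614, and all the mock runs lay above all the LPS runs.

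All 9 members passed the test in old protein at 24 h, against 37.9% of 3136 proteins (27.6% lower, 10.3% higher). The cathepsins differed by -0.95 ± 0.08 for Ctsd (SE, n = 2 per group, adjusted p = 1.58e-09, a fold of 0.518) to -1.11 ± 0.10 for Ctsc. Cstb was higher by 0.48 ± 0.07 (adjusted p = 4.82e-06), from 0.608 and 0.525 in mock to 0.784 and 0.796 in LPS. Cst3 was lower by 3.55 in the fit, but its ratios rested on 0 to 6 peptide pairs a run and were 8.81 and 3.53 in mock against 0.884 and 0.257 in LPS. The Cst3 call ended without either replicate (adjusted p = 0.0636 and 0.107).

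**Figure D1:**
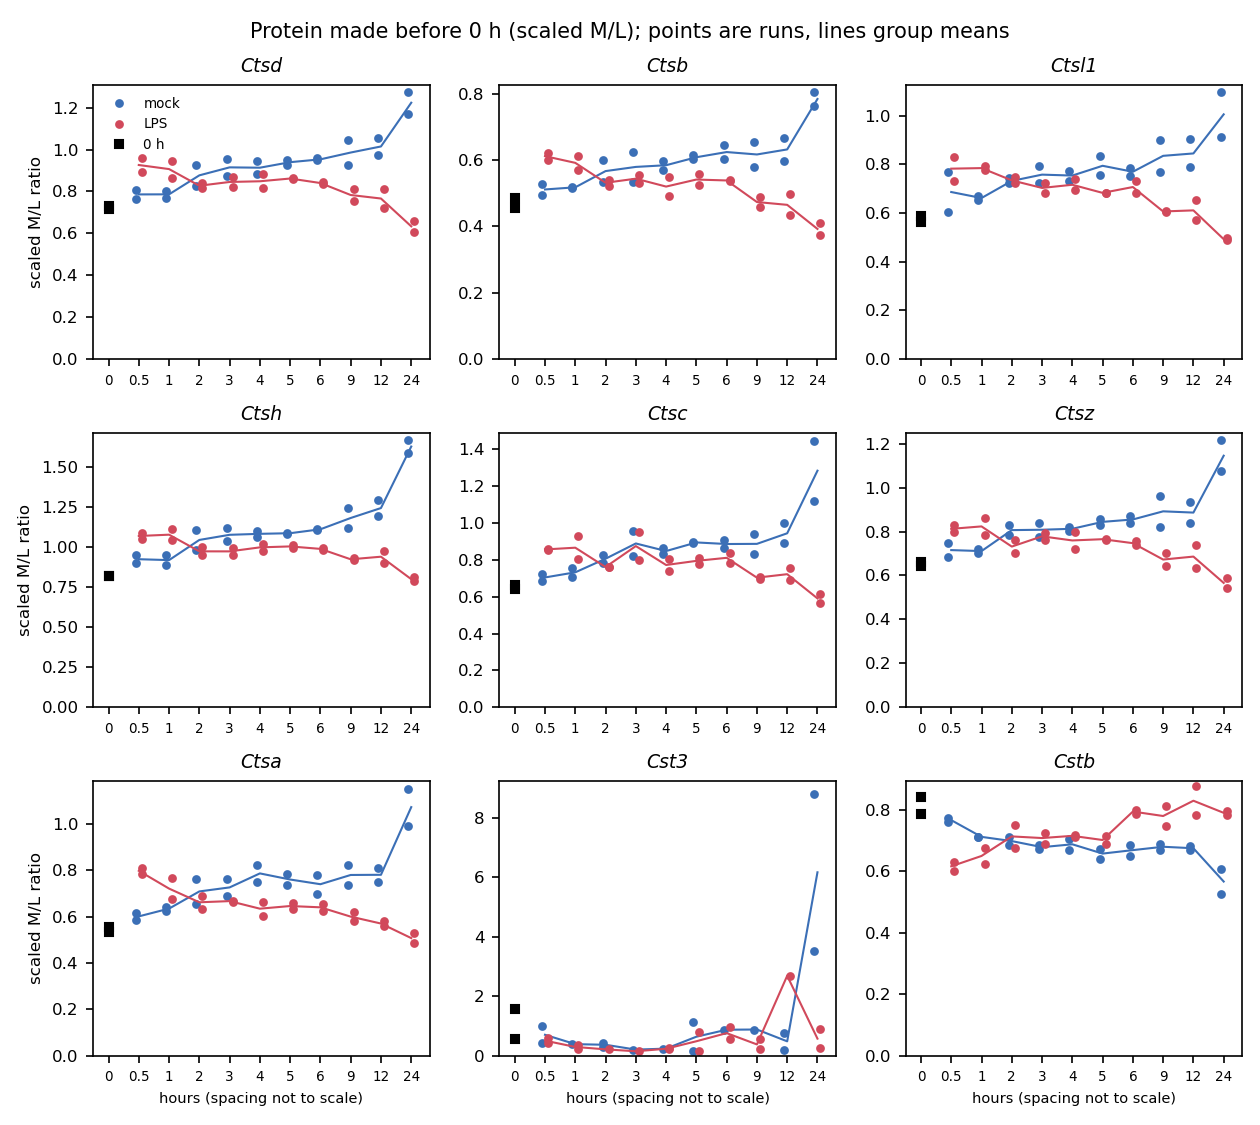
Scaled M/L (protein made before 0 h) of the 9 members against hours after stimulation, with mock in blue, LPS in red and 0 h in black squares; points are runs and lines are group means. The LPS means of the 7 cathepsins start above mock and end below it at 24 h, where Ctsd is at 1.17 and 1.28 in mock and 0.608 and 0.659 in LPS, and Cstb runs the other way.

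The separation was present at the late times. Old M/L at 6, 9 and 12 h was lower with LPS for 7 of 7 cathepsins, from -0.28 ± 0.06 for Ctsc (adjusted p = 0.00126) to -0.35 ± 0.06 for Ctsl1 (adjusted p = 0.000141), and higher for Cstb by 0.25 ± 0.04 (adjusted p = 7.20e-05). Here 17.1% of 3432 proteins were called, 13.6% lower and 3.53% higher, and the median over all was -0.02. Each of the 7 cathepsins was lower in 6 of 6 pairs of runs of the same time and replicate, and Cstb higher in 6 of 6. The groups did not overlap, save for Ctsc, whose call ended without replicate 2 (adjusted p = 0.0894) or without the 12 h runs (adjusted p = 0.0553). Cst3 differed by 0.40 ± 0.70 and was not called. The share of all proteins with pairs this uniform, or without overlap, was not counted.

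The first hour ran the other way. At 0.5 h the old M/L of Ctsd was 0.763 and 0.809 in mock and 0.894 and 0.959 in LPS. That of Ctsa was 0.585 and 0.616 against 0.785 and 0.810, and that of Cstb 0.772 and 0.760 against 0.630 and 0.602. The 0 h runs had 0.714 and 0.732 for Ctsd, 0.534 and 0.555 for Ctsa, and 0.788 and 0.843 for Cstb. Both arms thus lay off the 0 h values by 0.5 h, LPS further, in a form that the medium no longer supplied. The cause was not tested. At 0.5 and 1 h together, 7 of 7 cathepsins were higher with LPS in 4 of 4 pairs, without overlap except for Ctsl1, and Cstb was lower in 4 of 4. Such pairs were not counted over all proteins. The members share these runs and their run factors, so their pairs are not separate observations.

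Taken by itself, 0.5 h gave calls for Ctsa (0.41 ± 0.09, adjusted p = 0.0216) and Cstb (-0.32 ± 0.07, adjusted p = 0.0216), where 1.57% of proteins were called, and both calls ended without either replicate. The other cathepsins differed there by 0.18 to 0.28 and were not called. No member was called at 1, 2 or 3 h (0.147%, 0.12% and 0.184% of proteins called) or at 4, 5 or 6 h (0.305%, 0.408% and 0.632%). At 9 h 6 cathepsins were lower (5.01% of proteins called), all but Ctsc, and at 12 h all 7 were lower, by 0.37 for Ctsz to 0.47 for Ctsl1, with Cstb higher by 0.30 (12.2% called). The 16 calls over these times became 27 with the replicate number as a block, 10 higher and 17 lower, and between 3 and 9 without a replicate. The test of the first hour against the late window passed for 8 members and is given with the closing values.

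Totals moved with the old form. At 24 h the total of Ctsa was 1.48 and 1.71 in mock and 0.760 and 0.697 in LPS, a difference of -1.13 ± 0.09 or a fold of 0.457. The total of Ctsc, which differed least among the 7 member cathepsins, was 1.44 and 1.74 against 0.915 and 0.953, a difference of -0.76 ± 0.08 or a fold of 0.591. Cstb had 0.803 and 0.693 against 1.30 and 1.21, a fold of 1.68 (0.75 ± 0.07, adjusted p = 6.88e-09).

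All 9 members were called in the 24 h total, where 37.8% of 3095 proteins were (20.1% lower, 17.7% higher), and the adjusted p of the cathepsins lay between 1.63e-11 and 8.94e-08. Cst3 differed by -2.46 ± 0.56 (adjusted p = 0.00264) on the same few peptide pairs. At 6, 9 and 12 h, 7 cathepsins were lower and Cstb higher by 0.31 ± 0.04 (adjusted p = 1.86e-06), where 19.8% of proteins were called (9.59% lower, 10.2% higher). Without replicate 2, Ctsl1 (adjusted p = 0.066) and Ctsc (0.0685) were not called in that late total.

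Set against 0 h, the LPS cells changed little. The 24 h total in LPS was above 0 h for 5 cathepsins, by 0.27 (Ctsa) to 0.41 (Ctsb), and for Cstb by 0.46, where 15.6% of proteins were called, 9.57% higher. Ctsd differed by 0.19 and Ctsz by 0.21, not called without the block and called with it (adjusted p = 0.00523 and 0.00600). Of these rises only those of Ctsb and Cstb passed on the raw scale with the block and without the 12 h run, where Ctsd was at -0.06 and Ctsz at -0.03. At the late times 3 cathepsins were above 0 h in LPS (Ctsl1 0.38, Ctsh 0.31, Ctsc 0.26; 6.94% called, 5.33% higher), and 7 with the block. Without replicate 1 or 2 the 24 h count in LPS was 1 to 3 members and the late count 1 to 3. The direction of Ctsd and Ctsz against 0 h thus depended on the scaling.

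The comparisons of LPS with mock in old and total protein kept their counts on the raw scale when the replicates were blocked and the run that stood apart was left out, while those in new protein fell. First and second replicates differed in raw ratio throughout, and with neither run factor nor block only 1 of 9 members was called in old and in total protein at 24 h, and 0 of 9 in both at the late times. With no run factor, the replicate block and the run that stood apart left out, 8 were called late and 9 at 24 h, in old and in total protein alike. More of all proteins were also called there than in the main fits, and at 24 h most of those were higher with LPS. The closing section gives their counts. The member counts at 24 h thus stand against a larger share of all proteins. The 24 h total then differed by -0.52 (Ctsc) to -0.89 (Ctsa) for the cathepsins and 0.99 for Cstb, where the median over all proteins was 0.25.

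**Figure D2:**
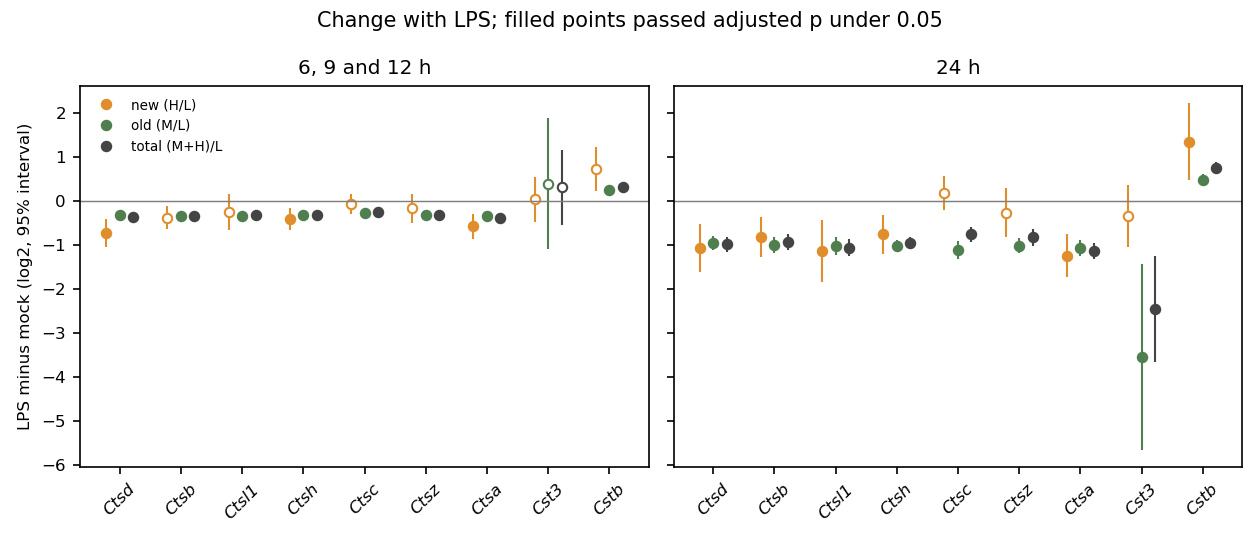
LPS minus mock (log2) of new, old and total protein for each member at 6, 9 and 12 h (left) and at 24 h (right), with 95% intervals; filled points passed an adjusted p under 0.05. At 24 h old and total protein lie below 0 for all 7 cathepsins and above it for Cstb, and Cst3 has the widest intervals in old and total protein.

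New protein was lower with LPS for some cathepsins and was not called for others. The H/L of Ctsd at 6 h was 0.0964 and 0.119 in mock and 0.0721 and 0.0804 in LPS. At 12 h it was 0.209 and 0.241 against 0.104 and 0.112. At 24 h it was 0.498 and 0.564 against 0.252 and 0.254, and the groups overlapped at none of these 3 times. Ctsa at 24 h had 0.489 and 0.558 against 0.233 and 0.210. At 12 h alone both were called lower (8.32% of proteins called), and both calls ended without either replicate.

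Late H/L was lower with LPS for Ctsd (-0.73 ± 0.16, adjusted p = 0.00140), Ctsa (-0.58 ± 0.14, adjusted p = 0.00469) and Ctsh (-0.41 ± 0.13, adjusted p = 0.0309), each in 6 of 6 pairs. This made 3 of 9 members, where 12.3% of 3316 proteins were called and only 1.75% were lower. Ctsb (-0.38 ± 0.13, adjusted p = 0.0523) and Cstb (0.73 ± 0.25, adjusted p = 0.0514) missed the threshold and passed with the replicate block (adjusted p = 0.0345 and 0.0482). Their pairs were as uniform as those of the called members, with Ctsb lower in 6 of 6 and Cstb higher in 6 of 6. Such pairs were not counted over all proteins. Ctsl1 (-0.24 ± 0.20), Ctsz (-0.16 ± 0.16), Ctsc (-0.06 ± 0.11) and Cst3 (0.04 ± 0.24) were not called. The count of called members went to 0 without replicate 2 or without the 12 h runs and to 1 (Ctsd) without the 9 h runs. The Ctsh call ended when any 1 of 8 runs was left out (adjusted p from 0.0561 without LPS at 6 h, replicate 2, to 0.138 without LPS at 9 h, replicate 2; 0.0953 without the run that stood apart).

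At 24 h the H/L differed for 6 members, where 10.2% of 3095 proteins were called, 2.33% lower and 7.88% higher. Lower were Ctsa (-1.24 ± 0.24, adjusted p = 0.000696), Ctsl1 (-1.14 ± 0.34), Ctsd (-1.07 ± 0.27, adjusted p = 0.00899), Ctsb (-0.82 ± 0.22) and Ctsh (-0.75 ± 0.22). Cstb was higher by 1.35 ± 0.42 (adjusted p = 0.0414), with 0.195 and 0.168 in mock against 0.511 and 0.416 in LPS. Ctsc, at 0.316 and 0.290 in mock and 0.349 and 0.338 in LPS, and Ctsz, at 0.253 and 0.320 against 0.260 and 0.218, were not called. With 1 replicate left in the groups compared, 0 or 1 member was called. With no run factor, 0 members were called late or at 24 h. With the block added and the 12 h LPS run left out, Ctsd (-0.66) and Ctsa (-0.51) were called late, and Ctsa, Ctsl1 (-0.90), Ctsd (-0.83) and Cstb (1.59) at 24 h. Subtracting each protein's H/L at 0 h before the log left 0 members called in either window.

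At 1, 2 and 3 h together no member was called in new protein, where limma called 16 of 3371 proteins (0.475%) and 190 had an unadjusted p under 0.05, and 5 of 9 members had a difference above 0. The change from late to 24 h was called for no member either (0.803% of proteins called, 205 at an unadjusted p under 0.05), with Ctsl1 at -0.90 (unadjusted p = 0.0328) and Ctsa at -0.66 (unadjusted p = 0.0243).

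**Figure D3:**
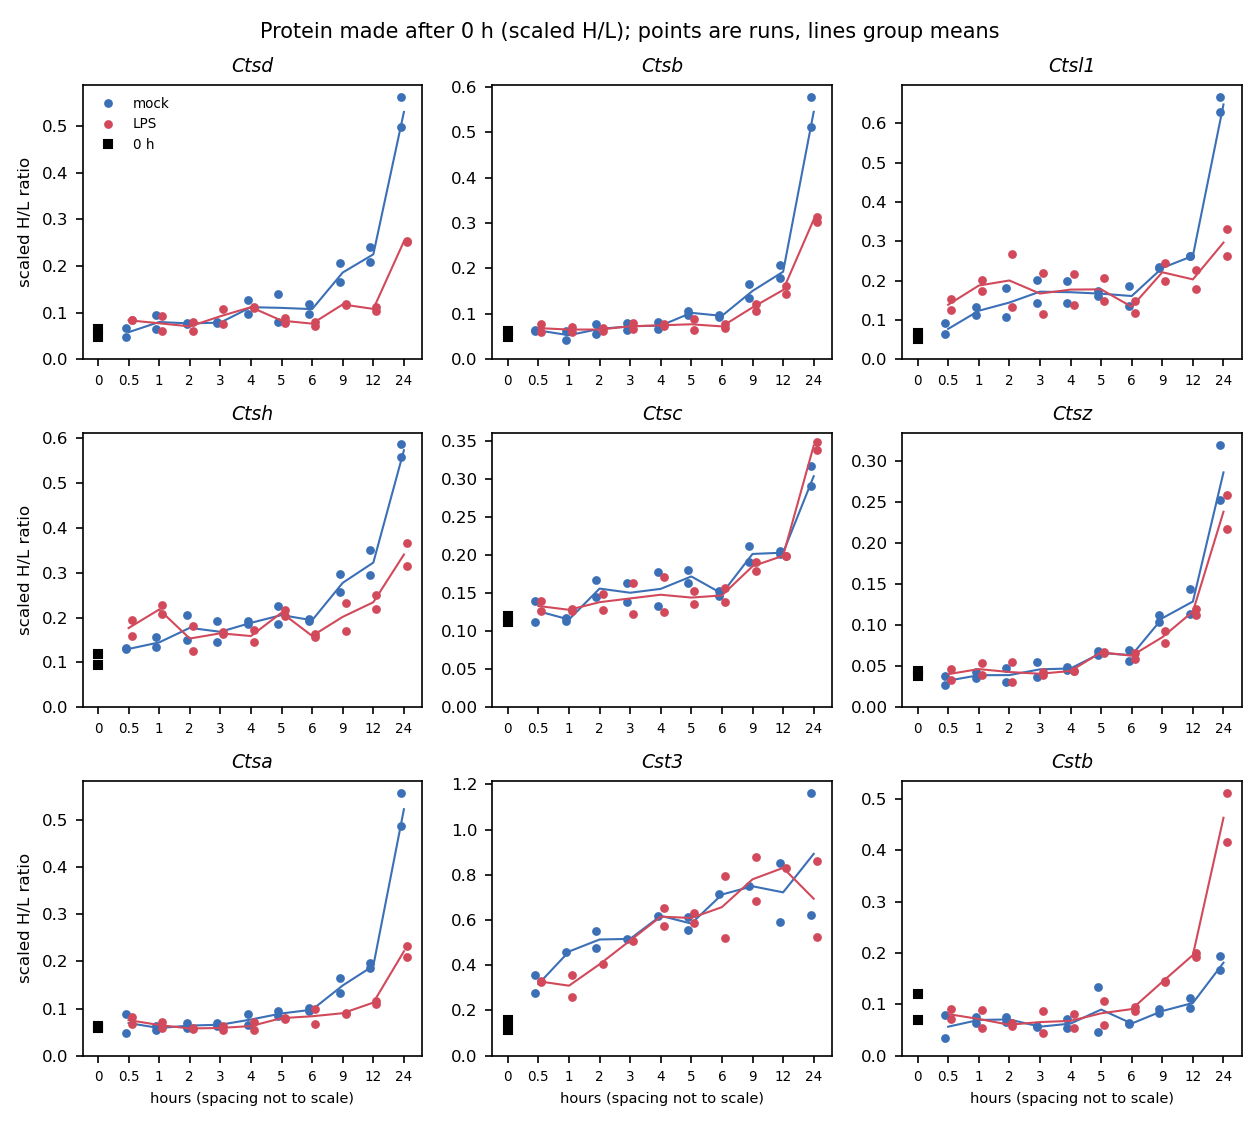
Scaled H/L (protein made after 0 h) of the 9 members against hours after stimulation, with mock in blue, LPS in red and 0 h in black squares; points are runs, lines group means, and each panel has its own axis. Ctsd and Ctsa stay below mock from 9 h on, Ctsc at 12 h lies at 0.199 and 0.199 in LPS against 0.201 and 0.205 in mock, and Cstb rises above mock, to 0.511 and 0.416 at 24 h.

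The heavy share of the total, H as a percentage of M and H, describes renewal and needs no light mix or run factor. At 0 h the share was already 5.69% and 7.70% for Ctsd and 14.6% and 14.1% for Ctsc, with a median over all proteins between 13.1% and 14.2%. This is the background of the heavy channel. At 24 h the heavy share of Ctsd was 30.2% and 30.2% in mock and 28.7% and 27.7% in LPS, that of Ctsb, the most renewed of the cathepsins, 41.6% and 42.0% against 45.2% and 44.5%, and the median over all proteins 29.3% to 29.5% against 30.7% to 32.8%. Apart from Ctsc, no cathepsin was called in the ratio of new to old protein, H/M, at 24 h, although the totals of all 7 were.

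The heavy share of Ctsc at 24 h was 18.2% and 16.6% in mock and 33.1% and 30.1% in LPS, and its H/M ratio was higher with LPS by 1.13 ± 0.25 (adjusted p = 0.00348, a fold of 2.19), where 8.43% of proteins were called (7.88% higher, 0.549% lower) and the median over all was 0.18. The call ended without either replicate (adjusted p = 0.169 and 0.116). Ctsz, at 18.6% and 19.3% against 27.3% and 26.9%, differed by 0.67 ± 0.24 and was not called (adjusted p = 0.103). Cstb differed by 0.78 ± 0.46 in H/M and was not called either (adjusted p = 0.472). The H/M of Cst3 was called too (3.12 ± 0.77, adjusted p = 0.0145) on 2 to 5 peptide pairs, and not without either replicate. In the late window the only member called was Ctsd, with a lower H/M by 0.42 ± 0.12 (adjusted p = 0.0166; 12.4% called, 1.03% lower), and its share at 12 h was 17.2% and 18.9% in mock against 13.2% and 12.2% in LPS. That call ended without either replicate or without the 12 h runs.

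**Figure D4:**
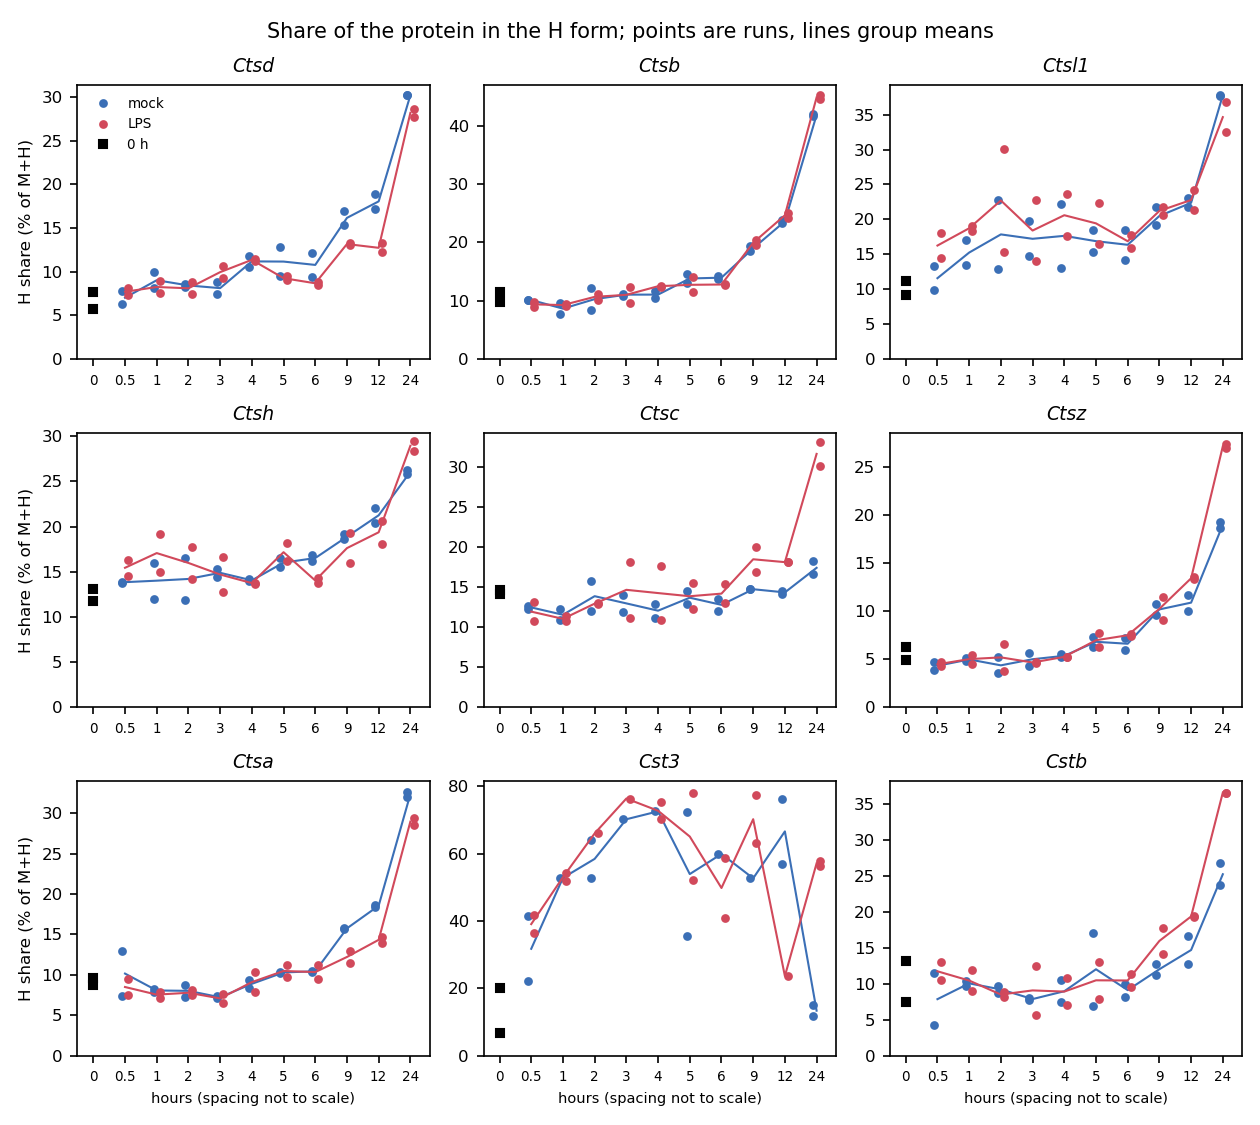
Heavy share (H as a percentage of M and H) of the 9 members against hours after stimulation, with mock in blue, LPS in red and 0 h in black squares; points are runs and lines group means. Among the cathepsins, Ctsc differs most at 24 h, with 33.1% and 30.1% in LPS against 18.2% and 16.6% in mock, while Ctsd and Ctsb lie close together. Cst3, on few peptide pairs, differs more, and the Cstb mean is 36.6% in LPS against 25.3% in mock.

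From 0.5 to 12 h, the old share of Ctsd fell more slowly with LPS. A line through the log2 old share from 0.5 to 12 h gave a half-time of 64.0 h in mock (95% interval 53.2 to 80.4 h) and 138 h in LPS, a difference in slope of 0.00836 ± 0.00221 log2 units per hour (adjusted p = 0.00607). Of 3342 proteins 13.9% were called, 1.74% in this direction of slower loss. No other member was called, save Ctsc with the replicate block (faster with LPS, adjusted p = 0.0427). The mock half-time of Cst3, on its few pairs, was 19.3 h with no upper bound. Mock half-times were 46.5 h for Ctsb (39.8 to 55.7 h), 66.3 h for Ctsa (53.3 to 87.7 h) and 83.4 h for Ctsl1 (48.1 to 315 h). They were 87.5 h for Ctsh (63.8 to 139 h), 103 h for Ctsz (82.1 to 138 h) and 123 h for Cstb (70.3 to 494 h). The median slope over all proteins gave 123 h. Most of these intervals overlap, so the order is loose. Ctsc renewed too slowly in mock to bound its half-time from above (302 h, interval from 133 h), against 96.6 h in LPS. These times include any heavy background and any growth of the cells, and they reach far past the 12 h fitted. The 24 h runs were not in the fit. There the mean heavy share of Ctsd was 30.2% in mock and 28.2% in LPS. Its H/M differed by -0.14 ± 0.20 and was not called (limma, adjusted p = 0.901). The slower loss is thus shown for the fitted times only. The Ctsd call ended without either replicate (adjusted p = 0.0743 and 0.308).

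Cst3, the secreted inhibitor, could hardly be followed. It had at least 2 M/L peptide pairs in 34 of 42 runs, and its heavy share ranged from 6.60% to 78.0%, at 24 h 11.7% and 15.0% in mock against 56.4% and 57.8% in LPS. Every other member had at least 17 M/L peptide pairs in every run, from 17 to 38 for Ctsl1 to 144 to 243 for Ctsd.

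Without the light channel, the members' share of all M and H intensity gave the same order of groups at 24 h. The 7 cathepsins together made up 12.5 to 13.5 per mille of the summed intensity at 0 h, 25.3 to 31.6 in mock at 24 h and 14.0 to 15.7 in LPS at 24 h. Ctsd alone was at 5.94 to 6.08, 12.8 to 17.3 and 7.31 to 7.73 per mille, and Cstb at 0.498 to 0.550, 0.293 to 0.298 and 0.579 to 0.704. The mock runs lay apart from the LPS runs in all these sums.

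**Figure D5:**
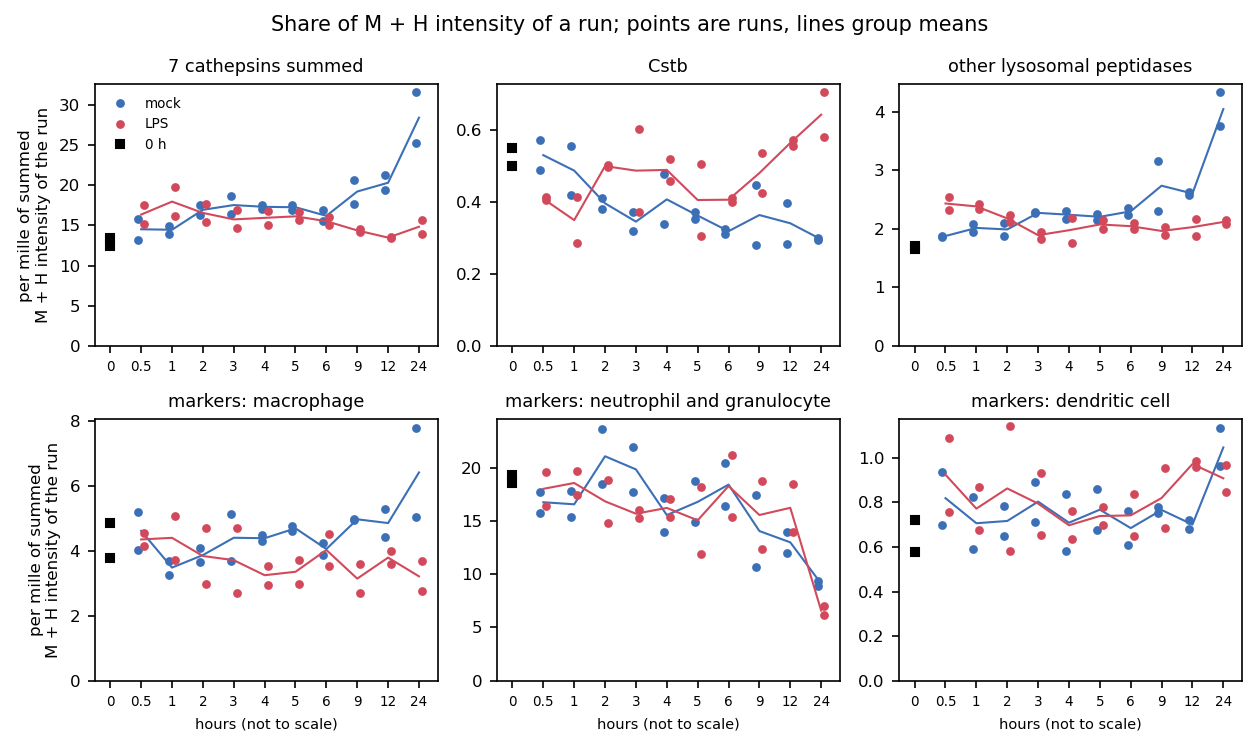
Share of the run's summed M and H intensity, in per mille, taken by the 7 cathepsins, Cstb, other lysosomal peptidases and 3 marker lists, against hours, with mock in blue, LPS in red and 0 h in black; points are runs and lines group means. The cathepsin sum is 25.3 to 31.6 per mille in mock at 24 h against 14.0 to 15.7 in LPS, and the macrophage sum 5.03 to 7.79 against 2.75 to 3.67.

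Marker lists of other cells moved as well. The summed share of the 9 macrophage markers measured was 3.79 to 4.87 per mille at 0 h, 5.03 to 7.79 in mock at 24 h and 2.75 to 3.67 in LPS at 24 h, in the same order of groups as the cathepsins. In the 24 h total, 5 of 7 tested macrophage markers were lower with LPS and 1 higher (median -1.05), against 20.1% and 17.7% of all proteins. At the late times 7 of 7 were lower in old protein (median -0.51, against -0.32 for the cathepsins and 13.6% of all proteins lower), and 3 were lower and 1 higher in new protein (median -0.25). The granulocyte sum was 18.6 to 19.3 per mille at 0 h, 8.86 to 9.39 in mock and 6.13 to 7.06 in LPS at 24 h, and 4 of 6 tested members were lower (median -0.69). At the late times 3 of 6 were lower and 1 higher in old protein (median -0.66), and 2 of 6 were lower in new protein. The dendritic cell sum was 0.577 to 0.722 at 0 h, 0.962 to 1.13 in mock and 0.848 to 0.970 in LPS, with 1 of 5 tested members higher and 2 lower. At the late times 1 of 5 was lower in old protein and 1 of 5 higher in new protein. Over all proteins, 3.53% were higher in late old protein, and 1.75% were lower and 10.6% higher in late new protein. Lyz2 and Cd68 of the macrophage list are lysosomal proteins themselves and stand in the lysosomal lists too, as Cd74 does among the partners below. Ctsg of the granulocyte list also stands among the other lysosomal peptidases below. The part of a change in cell make-up in the cathepsin values was not tested.

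Other proteases of the lysosome had the same direction. Of the listed lysosomal peptidases that are no members, 6 of 7 tested had a lower total with LPS at 24 h (median -0.97, against 0.01 over all proteins, of which 20.1% were lower): Tpp1, a tripeptidyl peptidase (-1.19), Lgmn, the asparaginyl endopeptidase that processes several cathepsins (-1.14), Scpep1 (-1.11), Dpp7 (-0.97), Prcp (-0.94) and Ctss, the cathepsin that completes invariant chain cleavage (-0.58). In mock at 24 h 6 of 7 were higher than at 0 h (median 1.25; 18.5% of all proteins were higher). In new protein at the late times 2 of 8 were lower, against 1.75% of all proteins: Lgmn (-0.83 ± 0.21) and Napsa (-0.48 ± 0.15).

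The proteins listed as partners of the members were lower in total in 5 of 5 cases at 24 h: Psap, the precursor of the saposins (-1.07), the β-galactosidase Glb1 (-0.89), Galns (-0.88), the neuraminidase Neu1 (-0.70) and the invariant chain Cd74 (-0.69). None of 5 was called in new protein late. Over all proteins, 20.1% were lower and 17.7% higher in the 24 h total, and 1.75% lower and 10.6% higher in late new protein. Of the other lysosomal hydrolases, 18 of 24 were lower in total and 1 higher (median -0.91), and 5 of 25 were lower in late new protein, among them Lyz2 (-0.95), Lipa (-0.76), Man2b1 (-0.76) and Asah1 (-0.55), with Rnaset2 higher by 0.96. Lysosomal membrane proteins and pump subunits were lower in 10 of 15 cases with a smaller median (-0.31). Of the receptors and enzymes of mannose 6-phosphate sorting only Sort1 (-0.75) of 12 was called, and their median was -0.09.

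The other listed inhibitors, cystatin family proteins and serpins, had the direction of Cstb in total protein. At 24 h 3 of 3 tested were higher with LPS, against 17.7% of all proteins, the intracellular serpins Serpinb6 (1.30) and Serpinb1a (0.83) and the stefin-like Gm5483 (0.54). In mock 4 of 4 were lower at 24 h than at 0 h (median -1.04), against 14% of all proteins, and none of 4 was called in late new protein, against 12.3%.

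The proteins whose time course of the LPS minus mock difference in H/L was most like that of a member were found by Pearson's r over 10 times among 2453 proteins with all 40 values. They were Chi3l3 and Ltf for Ctsa (0.991 and 0.989), Ngp and Gla for Ctsl1 (0.987 and 0.955), Tpp1 and Vrk2 for Ctsb (0.967 and 0.947), Arhgap9 and Suclg1 for Ctsd (0.955 and 0.947), and Phb and Hist1h2bh for Ctsh (0.973 and 0.954). For Cstb they were Lrrc59 and Ppp2r5a (0.968 and 0.939), for Ctsz Sdha and Polr2b (both 0.954), and for Ctsc 2210016F16Rik and Stxbp3 (0.874 and 0.841). All points share their runs and run factors, and a few times with extreme differences can weigh heavily in an r. These were not at 24 h alone: Ctsd differed by 0.55 at 0.5 h and -1.07 at 24 h, and Ctsh by 0.59 at 1 h and -0.75 at 24 h.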

How the data were processed

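Proteins of 42 trypsin runs, with an M and an H channel each, and of 4 other 0 h digests were measured by mass spectrometry. The authors deposited protein tables in the column layout of MaxQuant, per the file headers, with un-normalised and normalised SILAC ratios, counts of the peptide pairs behind each ratio, and intensity and iBAQ per channel. The submitters' processing notes list mm9. For software versions and settings, nothing is given in the sources used here. Of 6266 deposited groups, 90 decoys, 97 contaminants and 216 groups known only by a modified site (with overlap) were left out. The members and lists were chosen with earlier results of these data known.

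Here the deposited ratios with a count of at least 2 were divided by the run factor (log2 -0.681 to 0.692) and log2 transformed, so folds are ratios of the scaled ratios. Each comparison was 1 contrast of a fit of all 21 groups in limma 3.58.1 (R 4.3.3), over proteins that had 4 or more of the 6 late values in mock and also in LPS (both values, at single times), without a block, Benjamini-Hochberg adjusted over all proteins tested, with a threshold of 0.05. Slopes used 0.5 to 12 h and at least 12 of 18 values per arm. The differences between replicates 1 and 2 correlated between mock and LPS at all 10 times (r 0.252 to 0.458, median 0.389), so runs of the same replicate number shared deviations. The main fits took no account of this, and calls that changed with the replicate as a block are given. Python 3.11.15 with pandas 2.3.3, numpy 2.4.6 and matplotlib 3.10.9 read and drew the data. The contrasts at each time for old protein, of 24 h or late LPS against 0 h, of mock at 24 h against 0 h and of the first hour against the late window were added after the data were seen. The scripts were tested on simulated data.

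All members are named. Listed genes are given by counts. In the peptidase, inhibitor, sorting and partner lists, those called in late new protein have values, and other listed genes with values were chosen after these were seen. For likeness, the 2 other proteins with the highest r per member are named. Cst3 has no likeness, lacking values. The number of runs per group, 2, and the peptide pairs per ratio set the precision. Alternatives covered the scaling, the pair minimum, the block, the groups fitted and each replicate left out.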

Additional observations from a re-analysis of the deposited data

Results flagged for a closer look

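The LPS minus mock difference in old protein was not the same in the first hour and in the late window. Taking the LPS minus mock difference in log2 M/L at 0.5 and 1 h less that at 6, 9 and 12 h, a contrast added after the data were seen, 7 of 7 cathepsins and Cstb passed (limma, adjusted p from 7.67e-07 to 0.000183 for the cathepsins), where 20.1% of 3321 proteins were called, 14.3% higher and 5.81% lower. The differences were 0.64 for Ctsa, 0.57 for Ctsl1, 0.57 for Ctsb, 0.54 for Ctsc, 0.53 for Ctsd, 0.53 for Ctsh and 0.52 for Ctsz, and -0.47 for Cstb (adjusted p = 8.87e-06), while Cst3 at -0.80 was not called. Of the other lysosomal peptidases listed, 6 of 7 were higher in this contrast. All 8 member calls were kept on the raw scale with the replicate block and without replicate 2 of LPS at 12 h, and without replicate 2 throughout the Ctsc call ended (adjusted p = 0.0592). The cause was not tested.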

How the results depend on the processing

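The main limits are 2 runs per group, the scaling, and a heavy background at 0 h. Of 198 alternative counts of called members, 147 stayed within 1.5 times the main count. The largest shifts came with no run factor: 0 members in new protein late, new protein at 24 h, old and total protein late, both mock late comparisons, LPS late and 24 h against 0 h, both single-time series and the first hour against late, and 1 in old 24 h, total 24 h and mock 24 h against 0 h. It also took the all-protein counts from 588 to 20 (old late), 1188 to 28 (old 24 h), 656 to 119 (total late), 1169 to 112 (total 24 h), 359 to 0 and 975 to 32 (mock late, total and old), 1002 to 27 and 490 to 67 (24 h against 0 h, mock and LPS), 224 to 36 (LPS late), 669 to 0 (first hour against late), 946 to 520 and 649 to 6 (single times, new and old), 316 to 181 (new 24 h), 24 to 1 (new 24 h minus late) and 16 to 2 (new early). Signs turned with no run factor for new late Ctsc (0.11) and Ctsz (0.0011), old 12 h Ctsh (0.00099), Ctsc (0.019) and Ctsz (0.033), mock late total Cst3 (-0.031), LPS 24 h against 0 h Ctsd (-0.055), Cst3 (-0.16) and Ctsz (-0.027), and LPS late Cstb (-0.0060).

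With the replicate block, 5 members were called in new late, 2 in the slope, 27 in old protein at single times and 7 in LPS late against 0 h; besides the members named in the report, it changed no other call. It took all-protein counts from 24 to 42 (new 24 h minus late), 359 to 541 (mock late total) and 649 to 1195 (old at single times). With no run factor, the block and LPS 12 h replicate 2 left out, an alternative chosen after the data were seen, 2 members were called in LPS 24 h against 0 h, where Ctsd (-0.055), Cst3 (-0.16) and Ctsz (-0.027) turned sign, as did LPS late Cstb (-0.14) and Ctsz (-0.0050). All-protein splits, higher and lower, moved there from 323 and 865 to 1220 and 532 (old 24 h), 121 and 467 to 254 and 360 (old late), 338 and 318 to 497 and 221 (total late), 548 and 621 to 1260 and 349 (total 24 h), 244 and 72 to 449 and 50 (new 24 h), 233 and 126 to 76 and 1377 and 263 and 712 to 66 and 2224 (mock late, total and old), 571 and 431 to 114 and 1835 and 300 and 190 to 199 and 1330 (24 h against 0 h, mock and LPS), 172 and 52 to 113 and 936 (LPS late) and 476 and 193 to 327 and 885 (first hour against late). The median of all proteins there was 0.17 in old 24 h, 0.13 in new late, 0.30 in new 24 h, -0.23 and -0.32 in mock late, -0.26 and -0.17 in LPS at 24 h and late, and -0.12 in the first hour against late. Leaving out that run alone, also added afterwards, kept the counts of old late, total late, H/M late, slope, LPS late and first hour against late.

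The deposited normalised ratios gave 5 members in new late, 4 in H/M late, 0 in H/M 24 h and 0 in the slope. Signs turned for new late Cst3 (-0.38) and Cstb (-0.019), total late Cst3 (-0.20), H/M late Ctsl1 (-0.51), Ctsb (-0.49), Ctsc (-0.31), Cstb (-0.28) and Ctsz (-0.25), H/M 24 h Ctsb (-0.17) and Ctsh (-0.24), mock late total Cstb (1.00), and the slopes of Ctsb (0.040), Ctsc (0.034), Cstb (0.0089) and Ctsz (0.011). Their splits were 130 and 429 (new late, main 350 and 58), 102 and 67 (new 24 h), 543 and 460 (old late), 798 and 830 (old 24 h), 155 and 506 (total late), 128 and 309 (H/M late, main 378 and 34), 87 and 19 (H/M 24 h, main 244 and 17), 2917 and 0 (mock late total), 562 and 513 (mock late old) and 189 and 6 (new early, main 12 and 4), with 349 calls in total 24 h and 0 in the slope (main 464). Centring each channel gave 309 and 99 (new late), 196 and 104 (new 24 h), 214 and 386 (old late), 587 and 719 (old 24 h), 375 and 423 (mock late old), 246 and 422 (old at single times, main 118 and 531) and 460 and 337 (first hour against late), and new late Cst3 at -0.054.

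Summed intensities gave 1 member in new 24 h, turned new late Ctsc (0.25) and Cst3 in old late (-0.78) and total late (-0.44), and gave 269, 159, 242, 677, 306, 603 and 8 proteins in new late, new 24 h, old late, old 24 h, total late, total 24 h and new early. Subtracting the 0 h H/L gave 0 members in new late and new 24 h, and 216, 32, 0 and 6 proteins in new late, new 24 h, new 24 h minus late and new early. A minimum of 5 pairs gave 5 members in new late, 1 in H/M 24 h and 10 proteins in new early. Fitting only the groups compared gave 4 members in H/M 24 h and 518, 49, 306, 407, 608, 461, 67, 482 and 1 proteins in new 24 h, new 24 h minus late, old late, old 24 h, total 24 h, H/M 24 h, mock late total, mock late old and new early. A slope from 2 h on called 2 members. Summed intensity in place of iBAQ moved the median percentile of the members at 0 h from 95.7 to 95.8.

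Leaving out 1 replicate, 1 run or 1 time (a lone sample was assumed to vary like the other groups) gave 0 to 4 members in new late (Ctsb passed without mock 9 h replicate 1, adjusted p = 0.0443), 0 to 1 in new 24 h, 7 to 8 in old late, 8 to 8 in old 24 h, 6 to 8 in total late, 9 to 9 in total 24 h, 0 to 1 in H/M late, 0 to 0 in H/M 24 h, 7 to 8 in both mock late comparisons, 0 to 1 in the slope, 0 to 1 and 3 to 9 at single times (new and old), 8 to 8 in mock 24 h against 0 h, 1 to 3 in LPS 24 h and LPS late against 0 h, and 7 to 8 in the first hour against late. Signs turned without replicate 2 for new late Ctsc (0.0086), new 24 h Ctsz (0.038) and mock late old Cst3 (0.55), without replicate 1 for H/M late Ctsb (-0.018) and LPS 24 h Cst3 (-1.11), without 9 h or 12 h for H/M late Ctsb (-0.032 and -0.029), and for new late Cst3 without LPS 6 h replicate 1 (-0.061), LPS 9 h replicate 1 (-0.019) or mock 12 h replicate 2 (-0.046). The same leave-outs took new late Cst3 up to 0.14, new 24 h Ctsz down to -0.56, H/M late Ctsb up to 0.033 and LPS 24 h Cst3 up to 1.26. The cause of these shifts was not tested.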
